A study of Mus musculus with 6 samples.

Results

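Runx1 was called at 10004 places between genes in lung fibroblasts taken 14 days after bleomycin and no peak was called at these places in day 56 or sham cells. Peaks of the 3 Runx1 chromatin immunoprecipitation (ChIP-seq) lists that overlapped by 1 bp or more were merged into 56619 regions on chromosomes 1 to 19. Of these, 32186 held a D14 peak and neither a D56 nor a sham peak. The 10004 regions described here are those among them whose midpoint lay outside every annotated gene body and more than 1 kb from every gene end. The peak calls themselves chose the regions, so their presence at D14 and absence elsewhere is the rule and not a result. D14 only was the largest class, with 56.8% of all regions and 66.4% of the 15067 regions outside genes.

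The cells were GFP+ fibroblasts from lungs of Col1a2-CreERT2;mTmG mice, in which a tamoxifen-activated Cre driven from the collagen gene Col1a2 switches a membrane reporter to green. D14 and D56 cells came from lungs 14 and 56 days after intratracheal bleomycin, a drug that injures the lung and leaves a scar, and sham cells from sham-injured lungs. Every group carried the same genotype, and each had 1 Runx1 ChIP library and 1 input library. How many mice went into a library is not given in the labels. With 1 library per condition there is no test between conditions. Every range given after a share is its 95% Wilson interval, which reflects counting error alone.

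Runx1 is a transcription factor that binds DNA with its partner Cbfb, best known from blood cell development and also present in activated fibroblasts. Much of what such factors bind lies far from genes, in enhancers that can act on a promoter across a long distance. Several enhancers often lie together around one gene. Which gene an enhancer acts on cannot be read from distance, so the nearest gene is used below as an address and not as a target.

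The D14 library was also the deepest, with 78744701 ChIP tags and 49312043 input tags. D56 had 49669125 and 19949187, and sham 48816721 and 39609538. The D14 list held 55378 peaks on chromosomes 1 to 19, the D56 list 14704 and the sham list 24611. When each list was limited to its 14704 strongest peaks by p-value before merging, 624 regions met the rule, and by fold enrichment 757. These are not all among the 10004, since the limit removed sham peaks too. Of the 10004, 392 held a D14 peak within the limited list by p-value and 533 by fold.

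Each region held exactly 1 D14 peak. Peak height is given here as the fold enrichment, the authors' ratio of ChIP pileup to local background, and as the pileup, the number of stacked ChIP fragments at the summit after the authors' scaling. Both are used within the D14 list alone.

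Sequences of the regions themselves are not analysed here. The sequences that follow are of genes with several of the regions near them. They were chosen after the counts had been seen and not by rank. Mir29b-1 had the most regions of any microRNA gene, 8, while Mir29a beside it was the nearest microRNA gene of 1. The mature microRNAs are shown because their genes lay beside such groups, with the seed (bases 2 to 8, which pair with target mRNAs) in capitals. They are from RefSeq, build GRCm38.p6, written 5′ to 3′. Among the sequences printed here, the miR-29a and miR-29b strands share the seed AGCACCA, while the seeds of miR-21a and miR-34a differ from it and from each other.
mmu-miR-29a-3p: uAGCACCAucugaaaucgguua
mmu-miR-29b-3p: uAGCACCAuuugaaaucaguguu
mmu-miR-21a-5p: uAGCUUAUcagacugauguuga
mmu-miR-34a-5p: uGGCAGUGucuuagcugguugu
The miR-29a and miR-29b sequences lie on the minus strand at chr6:31062673-31062694 and chr6:31063025-31063047. The miR-21a sequence lies on the minus strand at chr11:86584120-86584141, and the miR-34a sequence on the plus strand at chr4:150068473-150068494.

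Of 1136 microRNA genes, 179 were the nearest microRNA gene, 25 kb or less away, of at least 1 of these regions, 267 regions in all, and 17 had 3 or more. A microRNA gene was the nearest gene of any kind for 62 of the 10004 (0.62%). The 25 kb count was not made for regions of other classes, so no excess near microRNA genes can be read from it. Mir29b-1 had the most, 8 regions between 7.75 and 24.6 kb away, all on the same side. For 6 of them the nearest gene of any kind was Lncpint, a lncRNA gene. MicroRNAs of the miR-29 family are known to repress collagen and other matrix mRNAs. The 8 regions had D14 folds of 3.46 to 6.79, the highest at chr6:31081986-31082359. Within 25 kb of the gene the D14 list had 11 peaks, the D56 list 0 and the sham list 3, and a region called in all 3 libraries lay just past this distance (chr6:31088241-31089098, D14 fold 5.12). Mir21a, whose microRNA is known to increase in scarred lung, had 6 regions in the stretch from 1.52 to 6.66 kb away, also on the same side. The nearest gene of any kind was Vmp1 for 5 of them and Tubd1 for 1. Their folds were 3.51 to 5.94, and the widest of the 6, chr11:86581973-86583117, was 1145 bp long, the greatest width among the 10004. D14, D56 and sham had 11, 2 and 3 peaks within 25 kb of Mir21a. Mir34a, a p53-induced microRNA gene, had 3 regions at 7.44 to 8.26 kb with folds of 3.37, 3.72 and 8.82, amid 7 D14, 1 D56 and 2 sham peaks. Mir6516 also had 6 regions, and Mir6963, Mir7046 and Mir365-2 had 4 each.

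Promoters are shown next because the data bear on them: each belongs to a gene with 7 or more of the regions around it and has a D14 peak over it. They are the 250 bases before the annotated start, RefSeq build GRCm38.p6, plus strand. Capitals mark the RUNX core motif TGTGGT or its reverse complement ACCACA, searched on both strands. Bmper encodes a secreted binder of BMP ligands (chr9:23222826-23223075), Cxcl12 a chemokine made by stromal cells (chr6:117168285-117168534) and Gli3 a transcription factor of the hedgehog pathway (chr13:15463473-15463722).
Bmper: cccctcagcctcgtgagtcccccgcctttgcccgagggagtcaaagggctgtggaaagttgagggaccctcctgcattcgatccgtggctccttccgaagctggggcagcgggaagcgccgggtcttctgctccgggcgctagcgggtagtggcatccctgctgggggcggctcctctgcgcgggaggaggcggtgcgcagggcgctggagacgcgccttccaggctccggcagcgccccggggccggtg
Cxcl12: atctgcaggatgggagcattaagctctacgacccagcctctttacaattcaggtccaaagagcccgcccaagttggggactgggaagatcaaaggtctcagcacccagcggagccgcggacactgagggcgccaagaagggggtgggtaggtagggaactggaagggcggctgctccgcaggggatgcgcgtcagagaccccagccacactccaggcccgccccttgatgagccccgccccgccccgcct
Gli3: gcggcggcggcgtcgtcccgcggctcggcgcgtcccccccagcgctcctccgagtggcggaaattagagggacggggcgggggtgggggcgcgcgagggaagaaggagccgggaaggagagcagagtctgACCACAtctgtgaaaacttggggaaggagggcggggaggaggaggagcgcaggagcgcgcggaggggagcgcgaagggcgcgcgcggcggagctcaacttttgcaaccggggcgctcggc
The Gli3 window held 1 motif, ACCACA, and the Bmper and Cxcl12 windows held 0. Of all 31396 promoter windows of this length, 14.0% held the motif. Among the 4397 promoters of genes nearest to one of these regions the share was 10.6% (9.74 to 11.6), and among 15688 promoters of other protein-coding genes 12.6% (12.1 to 13.1). The Bmper promoter lay under a peak called at D14 alone (chr9:23222895-23223684, fold 8.91). Bmper was the nearest protein-coding gene, up to 100 kb away, of 9 D14-only regions outside genes. The Cxcl12 promoter (10 regions) lay under a peak in each library, with a D14 fold of 11.4. The Gli3 promoter (7 regions) lay under a D14 peak of fold 27.5 (chr13:15462764-15464051). That peak is part of a region called in all 3 libraries, but no D56 or sham peak reached the promoter window itself.

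Promoters of genes nearest to one of the regions carried Runx1 peaks more often in each library than promoters of other protein-coding genes. The shares were 63.0% against 52.4% at D14, 42.8% against 37.2% at D56 and 50.2% against 42.8% in sham. A region called in all 3 libraries stood at an end of 46.3% of the 4479 genes (44.9 to 47.8) and of 38.2% of the other 16186 (37.4 to 38.9). A D14-only region stood there at 24.98% (23.7 to 26.3) and 17.6% (17.0 to 18.2).

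The regions were then set against other classes by location. Of the 32186 D14-only regions, 31.1% lay outside genes (30.6 to 31.6), 16227 lay inside genes and 5955 at gene ends. Of the 13454 regions called in all 3 libraries, 14.2% lay outside genes (13.6 to 14.8), and 8032 of them lay at gene ends. The share was 22.4% of the 464 regions called at D14 and D56, 27.8% of the 8433 called in sham and D14 and 33.3% of the 2004 called in sham alone. Of the 22 called at D56 alone it was 31.8%, and 28 of the 56 called at D56 and in sham lay outside genes. With gene-end regions set aside, the share outside genes was 38.1% for D14-only regions (37.6 to 38.7), 35.2% for regions called in all 3 (34.0 to 36.5), 35.4% for D14 and D56, 36.9% for sham and D14, 40.7% for sham alone, 41.2% for D56 alone and 52.8% for D56 and sham. From the first to the last gene of each of the 19 chromosomes there were 2441507 kb. Territory outside genes made up 48.9% of this span, gene bodies 44.8% and gene ends 6.32%.

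**Figure D1:**
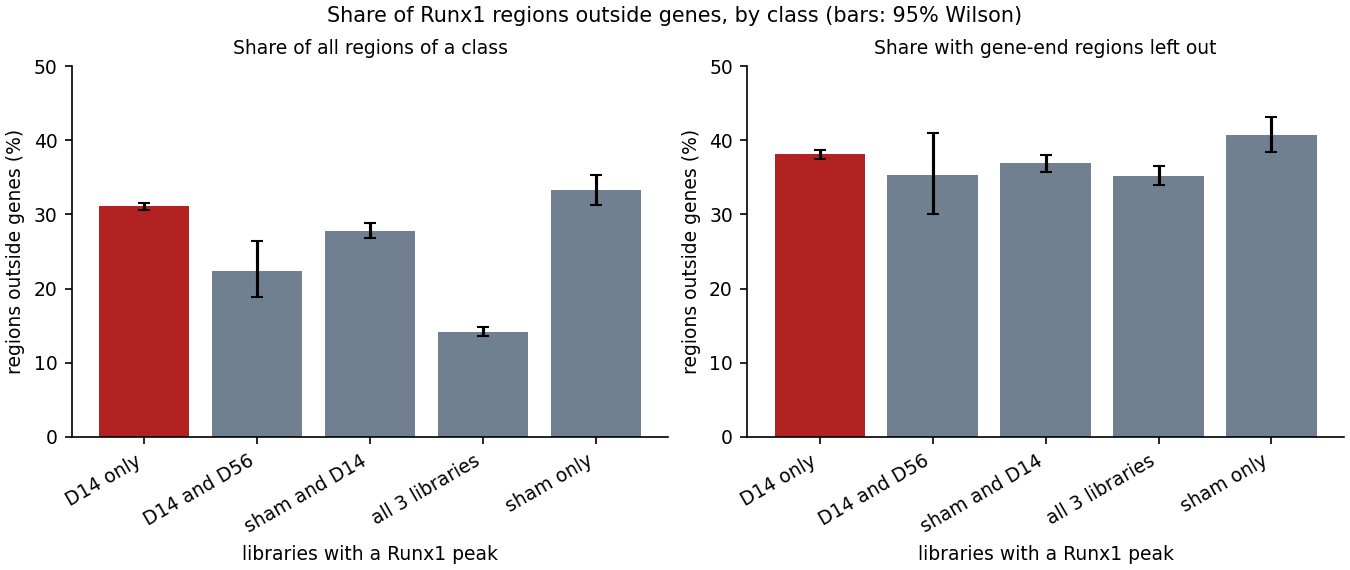
Share of Runx1 regions outside genes (%, y axis) by the libraries in which a region was called (x axis), over all regions of a class (left) and with gene-end regions left out (right); bars are shares with 95% Wilson intervals. D14-only regions stand at 31.1% and regions called in all 3 libraries at 14.2% on the left, and at 38.1% and 35.2% on the right.

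Read the other way, 69.6% of the 14365 D14-called regions outside genes were D14 only (68.9 to 70.4), against 67.8% of the 23941 inside genes (67.2 to 68.4) and 36.7% of the 16231 at gene ends (36.0 to 37.4). Between lists of 14704 peaks each, the share outside genes was 32.4% by p-value and 38.0% by fold.

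The regions were the weaker part of the D14 list. Their median D14 fold was 4.75, with an interquartile range of 3.95 to 5.94 and a range of 1.57 to 21.0. The 1911 regions outside genes called in all 3 libraries had a median of 8.81, an interquartile range of 6.43 to 11.8 and a highest value of 35.1. The interquartile ranges do not overlap, while the full ranges do. The 2346 called in sham and D14 had a median of 5.78. D14-only regions inside genes (4.71) and at gene ends (4.84) were close to those outside. The median pileup was 26 against 63 in regions called in all 3, the median −log10 q 9.21 against 38.0, and the median width 207 against 543 bp. These heights are from the list that chose the regions and are a description.

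The share of D14-called regions outside genes that were D14 only was lower at higher D14 folds. It was 84.0% below a fold of 3, 85.3% between 3 and 4 and 83.2% between 4 and 5. It was 70.4% between 5 and 7.5, 43.1% between 7.5 and 10, 26.9% between 10 and 15 and 7.23% at 15 or more (18 of 249 regions, 4.62 to 11.1). Among the 14704 strongest D14 peaks, as many as the whole D56 list, stood 392 of the regions by p-value (3.92%) and 533 by fold (5.33%).

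**Figure D2:**
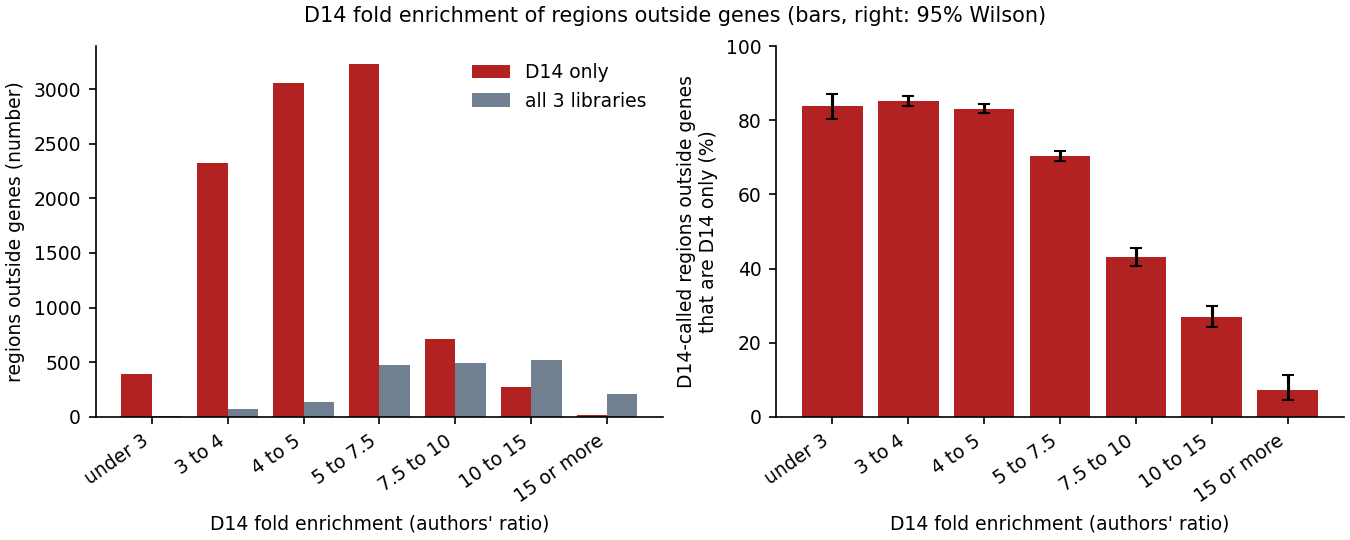
D14 fold enrichment, the authors' ratio, in 7 bins (x axes) for regions outside genes: their number by class (left, D14 only beside all 3 libraries) and the percentage of D14-called regions that were D14 only (right, with 95% Wilson intervals). The percentage is 85.3% between folds of 3 and 4 and 7.23% at folds of 15 or more.

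Regions near the limits of the rule were looked at on both sides. The 112 regions with a midpoint up to 100 bp beyond the 1 kb limit around gene ends had a median fold of 4.99 (2.71 to 13.1), and the 102 D14-only regions up to 100 bp within that limit had 4.64 (2.65 to 11.3). The 153 regions with a sham peak 200 bp or less away but no overlap had a median of 4.13 (2.20 to 10.8). The 13 regions kept out by an overlap of 1 to 50 bp between a sham and a D14 peak had 3.55 (2.60 to 4.85).

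The 12 regions with the highest folds, 15.6 to 21.0, lay from 7.72 to 583 kb from the nearest protein-coding gene, and 6 had such a gene within 100 kb. The highest of all, chr8:89663692-89664288 (fold 21.0, pileup 125), lay in the gap between Sall1, a zinc-finger developmental regulator, and Tox3, a chromatin protein, 583 kb from Tox3. Its nearest D56 peak was 966 kb away and its nearest sham peak 967 kb. The next, chr6:82863395-82863895 (fold 20.1), lay 48.2 kb from Sema4f, a semaphorin gene, with a sham peak 8.75 kb away. A region at chr7:128554490-128554909 (fold 17.1) lay 7.72 kb beyond the end of Bag3, a co-chaperone of HSP70, with a sham peak 5.01 kb away. The other genes within 100 kb were Slc7a1, a cationic amino acid transporter (fold 15.9, 44.0 kb), Atp6v1g3, a proton pump subunit (16.8, 59.2 kb), Cplx2, which regulates vesicle release (16.5, 21.5 kb), and Rbm47, an RNA-binding protein (15.6, 48.3 kb). The remaining 6 had no protein-coding gene within 100 kb, although non-coding genes lay closer to several. One of them, chr11:65386579-65387248 (fold 17.1), lay 117 kb from Myocd, the coactivator that turns on smooth muscle genes with Srf. Others were nearest to Tenm4, a cell-surface teneurin (fold 18.2, 318 kb), Bcl11b, a transcription factor of T cells (15.9, 194 kb), Zswim6 (15.9, 105 kb) and C1d (15.9, 118 kb). High folds were thus found both beside sham peaks and far from any.

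At the low end, the background implied by pileup and fold was even across the regions, with a median pileup of 5.57 per unit of fold, and 3 regions exceeded this by more than 5 times. They lay nearest to Ly6c2, a surface protein gene of myeloid and lymphoid cells (pileup 727, fold 1.57), to 9230019H11Rik (68 and 2.16) and to Pdia4, a protein disulfide isomerase (87 and 2.52).

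Distance to genes was next compared with that of constant regions. The regions lay a median of 26.7 kb from the nearest protein-coding gene. Regions outside genes called in all 3 libraries lay 26.6 kb away and those called in sham and D14 27.4 kb. Within 10 kb of such a gene were 27.8% of the D14-only regions (26.9 to 28.7) and 27.7% of those called in all 3 (25.7 to 29.7). Within 100 kb were 78.3% (77.5 to 79.1) and 79.0% (77.1 to 80.8). Beyond 500 kb lay 165 and 48, and the most remote D14-only region was 2199.9 kb from a protein-coding gene. The nearest gene of any kind was protein-coding for 42.5% and a lncRNA gene for 37.6%, against 41.9% and 39.8% of regions called in all 3.

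Density was lower at each step away from genes. D14-only regions numbered 16.3 per Mb of territory up to 10 kb from a protein-coding gene, 14.0 from 10 to 25 kb, 12.48 to 50 kb, 9.29 to 100 kb, 6.34 to 250 kb, 3.40 to 500 kb and 0.815 beyond. Regions called in all 3 libraries had 3.10, 2.68, 2.47, 1.80, 1.14, 0.571 and 0.237 per Mb over the same steps. D14-only regions made up between 83.5% and 85.6% of both classes at each step up to 500 kb, and 77.5% beyond. Over all territory outside genes the densities were 8.39 and 1.60 per Mb. D14-only regions were thus spread around genes in nearly the same way as constant ones.

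**Figure D3:**
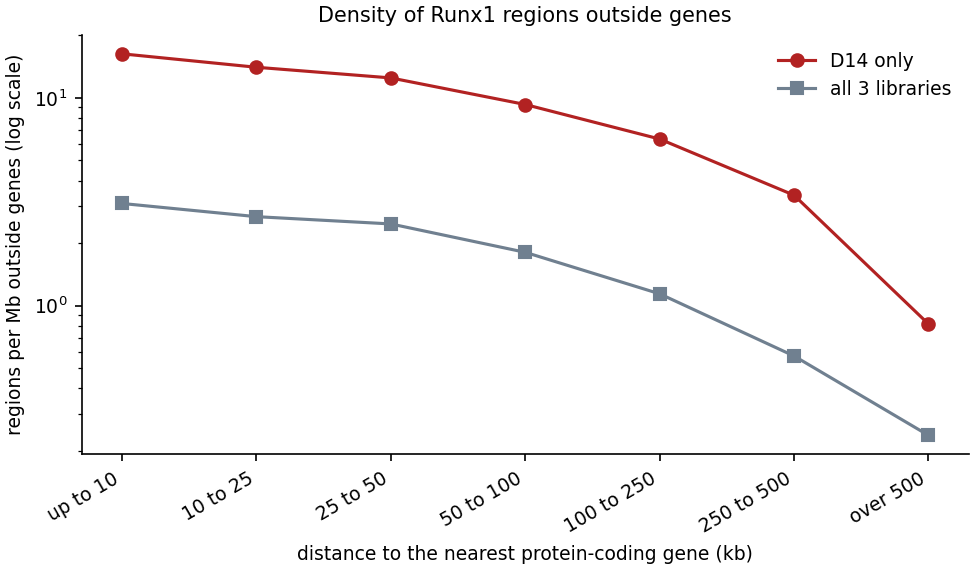
Regions per Mb of territory outside genes (y axis, log scale) by distance to the nearest protein-coding gene in kb (x axis), for D14-only regions and regions called in all 3 libraries. Both curves go down at each step, and D14-only regions lie above at every step, with 16.3 against 3.10 per Mb up to 10 kb and 0.815 against 0.237 beyond 500 kb.

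The side of the gene was compared too. Of the 7617 regions whose nearest protein-coding gene had a known strand, 52.0% lay upstream of it (50.8 to 53.1), against 52.8% of regions called in all 3 (50.3 to 55.4) and 53.0% of the territory itself. Within 10 kb of the gene the upstream share was 47.7% (45.5 to 49.8). It was much the same there for regions called in all 3, 47.6% (42.8 to 52.5), and for those called in sham and D14, 47.0% (42.9 to 51.3).

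The regions were found on every chromosome tested, from 242 on chromosome 19 to 737 on chromosome 2. They were 13.7% of all regions on chromosome 19 and 23.4% on chromosome 13.

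By the rule no region overlapped a D56 or sham peak, and the distance to the nearest such peak was measured. The distances that random places would have were not computed, so these values do not show whether the regions lay apart from such peaks. The median distance to the nearest D56 peak was 38.5 kb, to the nearest sham peak 22.6 kb and to the nearest region called in all 3 libraries 39.996 kb. A region called in all 3 lay within 10 kb of 20.7% (19.9 to 21.5), against 23.0% of D14-only regions inside genes (22.3 to 23.6). A sham peak lay within 10 kb of 32.2% and 36.8%, and a D56 peak within 10 kb of 21.1% and 23.6%. More than 100 kb from any sham peak were 1668 of the regions (16.7%), against 11.8% of those inside genes.

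Regions were then grouped by how close they lay to each other. The same count was not made for other classes or for random places, so the part of list density in it was not tested. Counting a run as 2 or more regions with no more than 12500 bp between neighbours, 4331 regions (43.3%, 42.3 to 44.3) lay in 1764 runs and 5673 lay alone. Pairs made up 1250 of the runs, 514 runs held 3 or more and 66 held 5 or more. The share in runs depended on the lists entered. Between lists of 14704 peaks each it was 6.57% by p-value and 5.55% by fold. With only peaks of fold 5 or more kept in every list it was 29.7%, and with 5 kb as the longest gap 28.5%.

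The longest run held 23 regions in 27.6 kb between Hspa8, the constitutive HSP70 chaperone, and Bsx, a homeobox gene (chr9:40814162-40841716). Their folds lay between 3.10 and 5.60 with a median of 3.67, and 1 of the 23 reached a fold of 5. This stretch held 25 D14 peaks, 1 D56 peak and 2 sham peaks. It surrounds a region called in all 3 libraries with a D14 fold of 8.69, so the run is a field of low peaks around a shared one. 

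The run between Hs1bp3 and Rhob, a small GTPase that acts on the actin cytoskeleton, held 10 regions in 43.8 kb (chr12:8411046-8454864). Folds were 3.27 to 8.83 with a median of 4.71, and the stretch held 12 D14 peaks, 0 D56 peaks and 1 sham peak. Another 10 lay between Tns3, a tensin that links integrins to actin, and Pkd1l1 (chr11:8673949-8709923), with folds of 3.50 to 7.56, a median of 5.03 and 13 D14, 1 D56 and 3 sham peaks. The run on the Mir29b-1 side of the gap between Klf14, a Krüppel-like factor, and Mkln1 held 8 (chr6:31070780-31087853), with 9 D14, 0 D56 and 2 sham peaks. The region called in all 3 libraries named above begins 388 bp after its end. Between Map4k3, a stress-pathway kinase, and Tmem178 lay 8, with 8 D14, 0 D56 and 1 sham peak and a median fold of 5.11. A region called in all 3 libraries with a D14 fold of 13.4 begins 833 bp past that run (chr17:80801565-80802252).

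The other 5 of the 10 largest runs held 7 regions each. Between Smndc1, a splicing factor, and Dusp5, a phosphatase of ERK, the stretch held 7 D14 peaks and 0 in either other library, with a median fold of 6.58. Between Ly86, a partner of a Toll-like receptor relative on immune cells, and Rreb1, a transcription factor, the median fold was 6.21, with 8 D14, 1 D56 and 1 sham peak. The runs at Garre1 and Lsm14a, an mRNA-decay factor (median 5.08), at Arsb, a lysosomal sulfatase, and Lhfpl2 (5.21), and at Mgat5b, a glycosyltransferase, and Sec14l1 (4.46) had 8, 8 and 10 D14 peaks. They had 0, 1 and 1 D56 peaks and 1, 1 and 3 sham peaks. Of the 10 runs, 5 held a region called in all 3 libraries within them, and for the other 5 the nearest was 0.388 to 23.99 kb away. For the run between Smndc1 and Dusp5, which lies 13.6 kb from Smndc1 and 91.4 kb from Dusp5, it was the region at the Smndc1 gene end, 13.3 kb away with a D14 fold of 20.8.

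**Figure D4:**
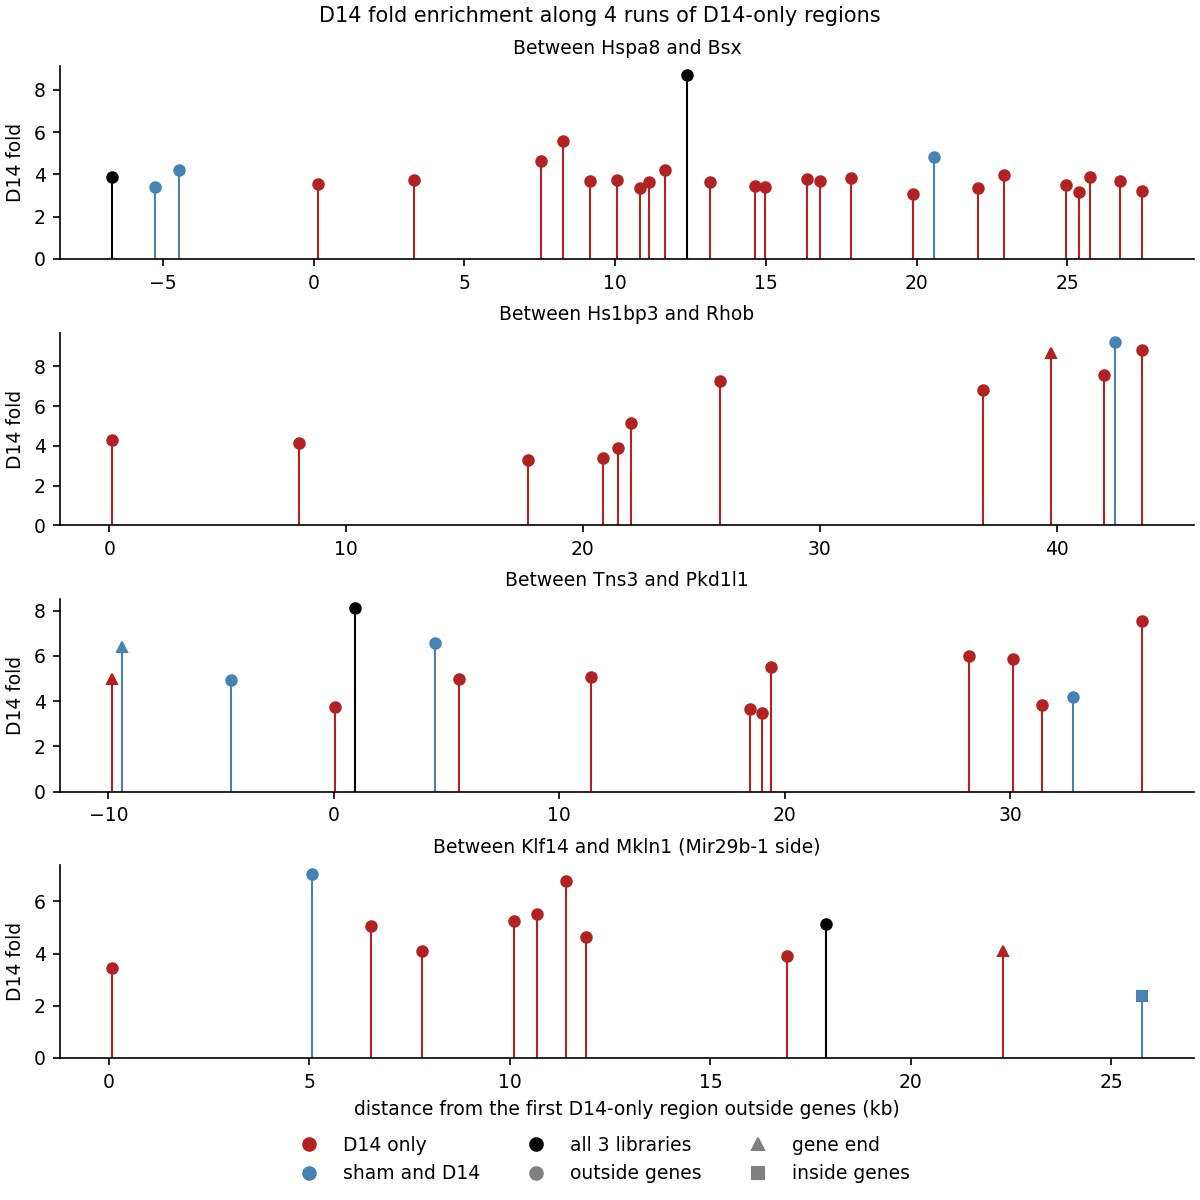
D14 fold enrichment (y axes, authors' ratio) along 4 runs, against distance in kb from the first D14-only region outside genes (x axes); colours give the libraries in which a region was called and shapes its place relative to genes. The Hspa8 run is a row of 23 low points with folds of 3.10 to 5.60 around a region called in all 3 libraries at 8.69.

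Gaps between neighbouring protein-coding genes were then ranked by the number of regions in them. Of 4247 gaps with any, 2168 held 1, 487 held 5 or more and 95 held 10 or more, which together held 1231 regions. The fullest was the 757 kb gap beside Runx1 itself, up to Setd4, with 29 regions. D14 had 38 peaks in it, D56 1 and sham 5. The folds of the 29 ran from 2.62 to 9.98 with a median of 4.80. The highest lay at chr16:93292993-93293383, 467 kb from Runx1, with the nearest D56 peak 286 kb and the nearest sham peak 186 kb away.

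The 68.9 kb Hspa8 to Bsx gap came next with 23 regions, all of the run above. The 1786 kb gap beside Myc, the growth-driving transcription factor, up to Gsdmc held 22, with 36 D14, 4 D56 and 7 sham peaks and a highest fold of 12.52 at 1422 kb from Myc. Between Cd83, a surface glycoprotein of immune cells, and Jarid2, a partner of polycomb complex PRC2, lay 20, with 28 D14, 3 D56 and 5 sham peaks. Another 5 gaps held 19 each. They were those between Maf, a leucine-zipper transcription factor, and Dynlrb2 (26 D14, 2 D56 and 7 sham peaks, highest fold 12.7), and between the mesenchymal cadherin gene Cdh11 and the endothelial cadherin gene Cdh5 (35, 7 and 11, fold 11.3). The others lay between Gadd45g, a stress-response gene, and Diras2 (27, 0 and 10, fold 11.1), between Med13l, a Mediator subunit, and Tbx3, a T-box factor (32, 4 and 10, fold 10.8), and between Cxcl12 and Zfp637 (25, 3 and 6, fold 8.71). The gap between Fn1, which encodes fibronectin, and Mreg held 18, with 32 D14, 3 D56 and 4 sham peaks and a highest fold of 8.39 at 114 kb from Fn1. The gaps differ widely in size, from 333.7 regions per Mb at Hspa8 to 12.3 at Myc.

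By nearest gene, 7837 of the regions lay within 100 kb of 4479 protein-coding genes, which is 21.7% of 20665. The same assignment of every D56 region outside genes reached 1251 genes (6.05%), and of every sham region outside genes 2311 (11.2%). Both libraries had fewer regions outside genes to assign, so these shares do not compare reach per region. Where a gene had any, the median was 1, and 193 genes had 5 or more. Hspa8 had 20 of them. Tns3 and Cebpb, a transcription factor of inflammation and of fat cell formation, had 12 each. At Cebpb the regions had a median fold of 3.57 and a highest of 5.84, and 17 D14, 2 D56 and 8 sham regions lay outside genes near it. Rgs3, which dampens G protein signalling, had 11 with a higher median of 6.27, beside 12 D14, 1 D56 and 1 sham region. Ly86 had 10, as did Rhob and Cxcl12. Counted the same way, Sfrp2, a secreted Wnt modulator named here after its values were seen, had 7 with a median fold of 7.14 and 0 D56 or sham regions near it.

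Genes grouped by role were counted in 21 lists of 338 genes, of which 334 lay on the chromosomes used. Regions were nearest to 160 of the 334 (47.9%), against 21.7% of all protein-coding genes. Raised shares were not particular to the D14-only regions. Sham regions were nearest to 12 of 21 collagen and matrix, 13 of 25 TGF-beta and BMP and 11 of 15 AP-1 genes. Their share over all protein-coding genes was 11.2%. Other lists were lower for sham, with 3 of 18 fibrotic fibroblast markers, 2 of 15 endothelial and 1 of 15 myeloid genes. In this and the counts below, D56 and sham numbers near a gene are of regions outside genes only, by the same nearest-gene rule. List genes also had more territory of their own to receive a region. Among genes with 50 to 100 kb of flank outside genes nearest to them, 75.7% of 70 list genes and 47.7% of 2420 protein-coding genes had one. With 10 to 25 kb the shares were 33.3% of 63 and 21.3% of 4584. Counts per list are therefore given with the density per Mb of such flank, which was 13.2 over all protein-coding genes. The part of flank size in each list's count was not tested.

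Markers of the fibrotic fibroblast, the matrix-making state of injured lung, had a region at 10 of 18 genes, 36 regions and 29.5 per Mb. Pmepa1, an inhibitor of TGF-beta signalling that TGF-beta induces, had 8, the highest with a fold of 13.7 at 30.7 kb (chr2:173307092-173307867). Near it outside genes D14 had 9 regions, D56 1 and sham 1. Runx1 had 7, with folds up to 5.50, and 0 D56 or sham regions. Sfrp1, a secreted Wnt antagonist, had 5, up to 12.1 at 30.04 kb, with 8 D14, 1 D56 and 3 sham regions. Postn, which encodes the matrix protein periostin, had 3, up to 6.96 at 5.77 kb, and 0 in the other libraries.

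Collagen and matrix genes had a region at 14 of 21, 38 regions and 36.7 per Mb. Col4a1, a basement membrane collagen, had 5, up to a fold of 9.54 at 26.7 kb, with 6 D14, 0 D56 and 1 sham region near it. Col6a3, a chain of the microfibrillar collagen VI, also had 5, but among 14 D14, 2 D56 and 12 sham regions. Col5a2 and Col5a1, chains of the fibrillar collagen V, had 4 each, up to 6.41 and 6.34. Col5a2 had 0 D56 and 0 sham regions, and Col5a1 had 1 of each.

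TGF-beta and BMP pathway genes had a region at 16 of 25, 35 regions and 23.1 per Mb. Smad2 and Smad3, the receptor-activated signal carriers of TGF-beta, had 4 each with 0 D56 or sham regions near either. The highest folds were 9.87 at Smad2 and 4.86 at Smad3. Id1, a BMP-induced inhibitor of helix-loop-helix factors, had 4, up to 6.64, with 6 D14, 1 D56 and 2 sham regions. Skil, a SMAD co-repressor, had 3, up to 6.01, with 0 in the other libraries.

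Contractile and SRF genes, the actin machinery of myofibroblasts, had a region at 4 of 17, near the share over all genes. Those 4 genes held 15 regions, which is 39.9 per Mb of the flanks of all 17 genes. There were 6 at Mrtfb, a coactivator of Srf, 4 each at Tpm1, a tropomyosin, and Actn1, an actin crosslinker, and 1 at Myl9, a myosin light chain. Folds reached 5.96, 5.92, 5.34 and 3.73 at these genes. YAP-TEAD genes, which respond to stretch, had a region at 10 of 15, 17 regions and 42.2 per Mb. Ankrd1 had 3, up to 9.84 at 63.5 kb, with 6 D14, 1 D56 and 3 sham regions. Ccn1, a secreted matricellular protein, had 3, up to 7.53, Tead1, a DNA-binding partner of YAP, 3, up to 4.84, and Amotl2, which holds YAP outside the nucleus, 2, up to 6.15.

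AP-1 family genes had a region at 9 of 15, 17 regions and 31.3 per Mb. Near these genes outside gene bodies lay 36 D14, 10 D56 and 27 sham regions. The totals were 77, 17 and 45 for collagen and matrix genes, 62, 15 and 30 for TGF-beta and BMP genes, and 68, 8 and 32 for inflammatory genes. Fos had 3 of the D14-only regions among 8 D14, 2 D56 and 7 sham regions, and Atf3, a stress-induced factor, 3 among 5 D14, 0 D56 and 7 sham regions. Fosb and Bach1 had 2 each, up to folds of 8.05 and 6.85.

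RUNX family and partner genes had a region at 8 of 10, 25 regions and 24.9 per Mb, with 28 D14, 3 D56 and 3 sham regions. After Runx1 came Ets1, a factor that binds DNA together with Runx1, with 4 regions up to 9.02. Runx1t1, a corepressor, had 4 up to 5.67, and Tle3, a Groucho corepressor, 3 up to 10.8 at 16.8 kb.

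Mesenchymal transcription factors had the most regions of any list, 54 at 18 of 30 genes, in 2.67 Mb of flank (20.2 per Mb). Gli2, an effector of hedgehog signalling, had 8, up to 9.43 at 98.5 kb, with 9 D14, 0 D56 and 1 sham region. Tbx5 and Tbx4, T-box factors of lung and limb mesenchyme, had 7 each, up to 11.2 and 6.59. Outside genes near Tbx4 D14 had 7 regions and the other libraries 0, and near Tbx5 D14 had 9, D56 0 and sham 2. Zeb2, a repressor of epithelial genes, had 5, up to 8.96.

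Markers of resting fibroblasts were counted next. Alveolar fibroblast markers had a region at 9 of 22, 17 regions and 18.1 per Mb, led by Itga8, an integrin chain (5, up to 7.05), Fgfr4, a fibroblast growth factor receptor (4, up to 5.33), Spon1, a matrix protein (2, up to 3.92), and Enpep, an aminopeptidase (1, with a fold of 10.1 at 89.3 kb). Adventitial markers had one at 8 of 17, 16 regions and 24.7 per Mb. Penk, an opioid precursor, and the collagen genes Col15a1 and Col14a1 had 3 each, with 0 D56 or sham regions near any of them, and Dcn, the proteoglycan decorin, had 2.

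Inflammatory fibroblast genes had a region at 11 of 20, 38 regions and 36.9 per Mb. Cxcl12 had 10, with 12 D14, 0 D56 and 2 sham regions near it. Nfkbia, the inhibitor that NF-kappaB induces, had 7, up to 4.98, among 16 D14, 1 D56 and 10 sham regions. Cxcl1, a neutrophil attractant, had 5, up to 5.21, and Vcam1, an adhesion molecule, 3, up to 6.60. Growth factors and receptors had one at 12 of 20, 24 regions and 13.5 per Mb, about the density over all genes. Vegfa, which drives vessel growth, had 5, up to 7.30, and Fgf18, a fibroblast growth factor gene, 4, up to 4.90. The growth factor genes Hbegf and Pdgfa had 3 each, up to 6.49 and 4.86.

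Marker genes were counted as a check on the cell type, although a peak near a gene does not measure its expression. Genes that define fibroblasts had a region at 7 of 10, 11 regions and 19.8 per Mb, among them Col1a2 with 3, Col1a1 and Dcn with 2 each and Thy1 with 1. Endothelial markers had one at 8 of 15, 19 regions and 25.2 per Mb, with 4 at Flt1, a VEGF receptor (up to 7.63), 4 at Erg, an endothelial factor, 3 at Cdh5 and 2 at Egfl7 (up to 10.1). Pericyte and smooth muscle markers had one at 6 of 11, 11 regions in 0.181 Mb of flank (60.8 per Mb), with 4 at the potassium channel gene Kcnj8 and 2 each at Notch3 and Rgs5. Myeloid markers had one at 3 of 15 (9.46 per Mb), lymphocyte markers at 4 of 13 (12.9), lung epithelium markers at 4 of 17 (7.30) and mesothelium markers at 0 of 7. Genes of other organs had one at 1 of 17, with 2 regions at Neurod1, and ubiquitous reference genes at 5 of 13, 11 regions and 45.5 per Mb, of which 7 lay at Ywhaz, a 14-3-3 protein gene. The leukocyte and epithelial counts were of 4 or 5 regions, led by Marco and Klrb1c with 2 each, and by Sftpb, the surfactant protein B gene, with 1 region of fold 10.3. Ly6c2, 1 of the 3 myeloid genes, had only the high-background region named above (pileup 727, fold 1.57). Whether cells other than fibroblasts gave part of the signal was not tested.

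**Figure D5:**
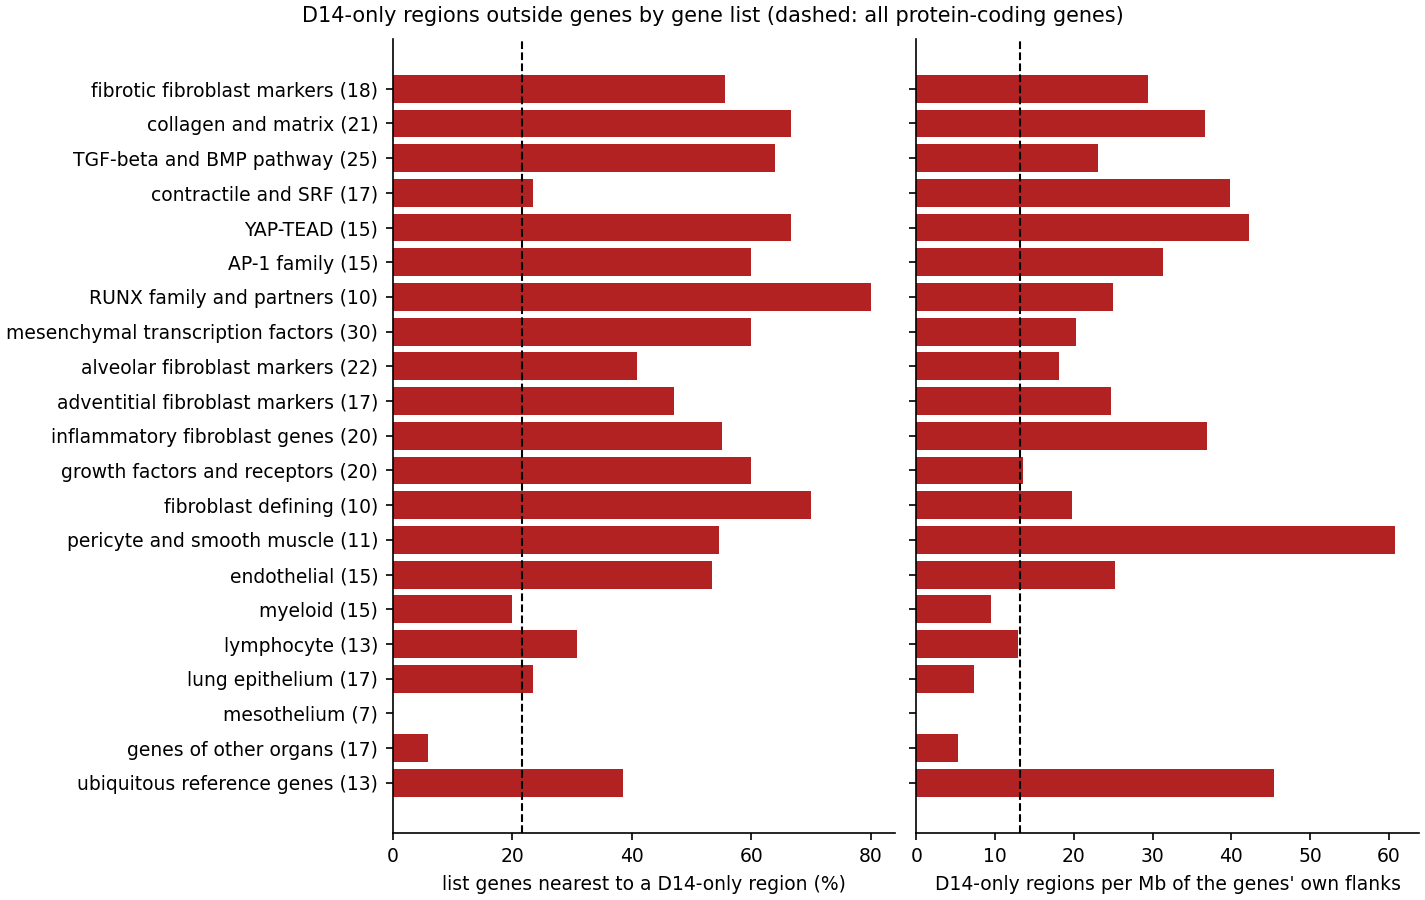
Percentage of each list's genes assigned a D14-only region outside genes, by nearest protein-coding gene up to 100 kb away (left) and such regions per Mb of the genes' own flanks (right), by gene list with the number of genes in brackets. Dashed lines mark all protein-coding genes, 21.7% and 13.2 per Mb; mesothelium markers are at 0 in both.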

How the data were processed

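The data are 3 peak lists, 1 per condition, from Runx1 ChIP-seq of mouse lung fibroblasts. The submitters' processing notes name the build mm10 and the tools BWA, SAMtools and MACS2. Per the file headers, the caller was MACS 2.0.10.20120913, run on every ChIP library with that library's input as control. The q-value cutoff was 0.01, the effective genome size 1.87 Gb and the background windows 1 and 10 kb wide, and the bigger of ChIP and input was scaled down to the other. No libraries were pooled. For each peak the authors deposited its pileup signal, its fold enrichment (a ratio to local background) and its p-value and q-value, both as −log10. They made these apart for each library, so values are used within the D14 list. A longer list can come from a deeper library, and tag totals stand in the text.

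Peaks were merged, placed and counted with Python 3.11.15, pandas 2.3.3 and numpy 2.4.6. Gene positions came from a RefSeq table (GRCm38.p6) with no strand, and strand from RefSeq promoter windows. Each region was assigned to the nearest protein-coding gene by its midpoint, up to 100 kb. Shares carry 95% Wilson intervals. Steps were tested on simulated data. The regions, the gene lists and the naming rule were chosen with earlier results of these data known.

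The naming rule took the gene within 100 kb of the 12 highest folds, the genes flanking the 10 fullest gaps and the 10 largest runs, up to 4 genes per list by number of regions, and the 5 genes with the most, passing over unnamed gene models. Genes outside it were named after their values were seen: Bmper, Gli3, Sfrp2, the distant genes among the 12, the 3 with high background, and the microRNAs. Sequences of the regions and their motifs are not analysed here.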

Additional observations from a re-analysis of the deposited data

Results flagged for a closer look

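The X chromosome lay outside the rule, which takes chromosomes 1 to 19, and was looked at on its own because it held a signal that no comparison above uses. Placed and classed in the same way, it had 942 regions, 214 of them outside genes. Of these, 139 were called at D14 only, 0 at D56 only and 6 in sham only, and 30 in all 3 libraries. The 139 had D14 folds of 3.10 to 14.3 with a median of 4.86, beside 4.75 for the 10004 regions on the other chromosomes.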

How the results depend on the processing

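Limiting each list to its 14704 strongest peaks by p-value gave 624 regions, not all of them among the regions described above. The share outside genes was 24.9%, the D14-only share outside genes 32.4% and the median fold 10.4. In runs lay 6.57%, and 16.0% lay within 10 kb of a region called in all 3 libraries. There were 459 nearest genes and 20 list genes (5.99% of list genes, beside 2.22% of protein-coding genes). By fold these were 757 regions, 24.7%, 38.0%, 10.1, 5.55%, 11.9% and 558 genes. Keeping only peaks with a fold of 5 or more in every list before merging gave 5471 regions, 29.0%, 72.8%, a median of 6.37, 29.7% and 13.2%. A −log10 q of 5 or more gave a D14-only share of 71.0%, a median of 5.03, 40.9% in runs and 18.2% near a shared region. Reciprocal overlap of 50% gave 29.8%, 74.5%, 46.3% and 13.8%, and summits within 200 bp a D14-only share of 70.6% and 44.5% in runs. Joining peaks under 500 bp apart gave 33.0%, 68.8%, a median of 4.83, 35.8% and 18.8%. Without sham the shares were 30.4%, 86.0%, 50.7% and 22.8%, with a median of 4.86. A gene-end distance of 2.5 kb gave 27.3% outside genes, 42.0% in runs and 18.5% near a shared region, and one of 10 kb gave 5295 regions, 16.5%, 39.7%, 11.8% and 2180 genes. With protein-coding genes only the shares were 41.7%, 68.3% and 47.7% in runs. Run gaps of 5 and 25 kb gave 28.5% and 55.9%, and both flanking genes 7047 genes. Of 95 such values, 40 stayed within counting error or 1.5 times. Causes were not tested beyond what each setting removes. No paired analysis was possible because each condition has 1 library and no result comes from a test. The planned motif shares in the regions were not run. D56 calls rest on the smallest input, and a peak missing from a shallower list is not shown to be absent.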
